A study of Sus scrofa with 14 samples.

Results

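Insulin-like growth factor 1 (IGF1) and the binding proteins IGFBP5 and IGFBP6 were examined in the uterus of pregnant sows that differed in prolificacy. They are 3 of the 6765 genes that the platform annotation gives a probe set of their own. All probe sets with one of these symbols alone were taken, 6 of the 23999 tested, of which IGF1 had 3, IGFBP6 had 2 and IGFBP5 had 1. The genes were picked because their levels differed between the groups, with IGF1 and IGFBP6 lower and IGFBP5 higher in high prolificacy, so those differences are described here without a test. The study compared 5 sows classed as highly prolific with 9 classed as lowly prolific, each on 1 Affymetrix porcine array. All sows were F2 animals of an Iberian x Meishan cross, were slaughtered between days 30 and 32 of pregnancy number 5 and gave uterus samples that were frozen at once in liquid nitrogen. The labels do not say which layers of the uterine wall a sample held or how far it lay from a conceptus, nor the sows' ages. Values are log2 levels as normalised by the authors, and differences are high minus low prolificacy. The SE of a difference is the moderated one from limma, and the SD is that between sows.

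IGF1 is a secreted growth factor made in the liver under growth hormone and also locally in many tissues, the pig uterus in early pregnancy among them. It acts through the tyrosine kinase receptor IGF1R on growth and survival of the cells around it. Most IGF in body fluids is held by binding proteins, which carry it, keep it from its receptor and release it when proteases cut them. IGFBP5 also attaches to extracellular matrix and has been described as both enhancing and restraining IGF action, while IGFBP6 prefers IGF2 over IGF1.

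IGF1, the ligand, was lower in high prolificacy. Its brightest probe set had log2 levels of 6.92, 6.77, 6.68, 6.32 and 7.03 in high 1 to high 5, against a lowest of 7.61, a median of 8.07 and a highest of 8.67 in the 9 low prolificacy arrays. The groups did not overlap, and the highest high array, high 5, lay 0.58 under the lowest low array, low 5. High prolificacy averaged 6.74 ± 0.27 (SD, n = 5) and low prolificacy 8.12 ± 0.32 (SD, n = 9), which is a difference of -1.37 ± 0.17 (SE), or 2.59-fold.

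The second brightest IGF1 probe set also separated the groups. It was at 6.06, 5.18, 5.28, 5.14 and 6.63 in high 1 to high 5, against a lowest of 6.89, a median of 7.82 and a highest of 8.93 in low prolificacy. The difference was -2.16 ± 0.32 (SE), and again no high array reached the low arrays. The high mean of 5.66 lay under the lowest array median of 5.73, so no fold is given. High 1 and high 5 stood above the other high arrays here. The dimmest IGF1 probe set overlapped between the groups, at 5.30 ± 0.30 (SD, n = 5) in the high arrays, 5.53 ± 0.17 (SD, n = 9) in the low arrays and a difference of -0.22 ± 0.13 (SE). Both of its group means also lay under the lowest array median, and detection calls were not used here, so whether it measured IGF1 above background is not known. The sows nevertheless kept a similar order in it. Deviations from the group means correlated at r = 0.80 with those of the second brightest and at r = 0.64 with those of the brightest probe set over the 14 arrays, while those 2 correlated with each other at r = 0.90.

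IGFBP6, the binding protein that prefers IGF2, was also lower in high prolificacy without overlap. Its brightest probe set stood at 6.54, 6.22, 6.47, 6.84 and 6.85 in high 1 to high 5, against a lowest of 7.56, a median of 8.26 and a highest of 9.68 in low prolificacy. The high arrays were close to each other, and among the low arrays low 7, at 9.68, stood apart from the next highest at 8.54. The high arrays averaged 6.59 ± 0.26 (SD, n = 5) and the low arrays 8.28 ± 0.62 (SD, n = 9), a difference of -1.69 ± 0.28 (SE), or 3.23-fold. Without low 7 the difference was -1.52 ± 0.18 (SE). The other IGFBP6 probe set was at 5.34, 4.57, 4.42, 5.41 and 5.09 in high prolificacy, against a lowest of 6.33, a median of 7.23 and a highest of 8.86 in low prolificacy. This difference was -2.15 ± 0.37 (SE), and low 7 was again the highest array. All 5 high arrays lay under the lowest array median, so here too no fold is given. The 2 IGFBP6 probe sets varied together within the groups (r = 0.94 over deviations in 14 arrays).

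IGFBP5, the binding protein found in matrix, went the other way and by less. Its single probe set was at 8.63, 8.41, 9.18, 9.29 and 9.60 in high 1 to high 5, against a lowest of 7.66, a median of 8.31 and a highest of 8.76 in low prolificacy. High 3, high 4 and high 5 lay above all low arrays, while high 1 and high 2 lay within the low range, so the groups overlapped. The high arrays averaged 9.02 ± 0.49 (SD, n = 5) and the low arrays 8.25 ± 0.35 (SD, n = 9), a difference of 0.78 ± 0.22 (SE), or 1.71-fold. When each array was left out in turn this difference lay between 0.63, without high 5, and 0.93, without high 2, and with array weights it was 0.54 ± 0.19 (SE).

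Set against the whole array, limma called 4 of the 6 probe sets lower and 1 higher at an adjusted p under 0.05, and the dim IGF1 probe set was the one not called. Over all 23999 probe sets 4.35% were called lower and 3.5% higher. All 5 high arrays lay below all 9 low arrays in 4 of the 6 probe sets, against 1.74% of all probe sets. Since the genes were selected on this contrast, nothing is read from these counts. The median difference over all tested probe sets was 0.039.

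**Figure D1:**
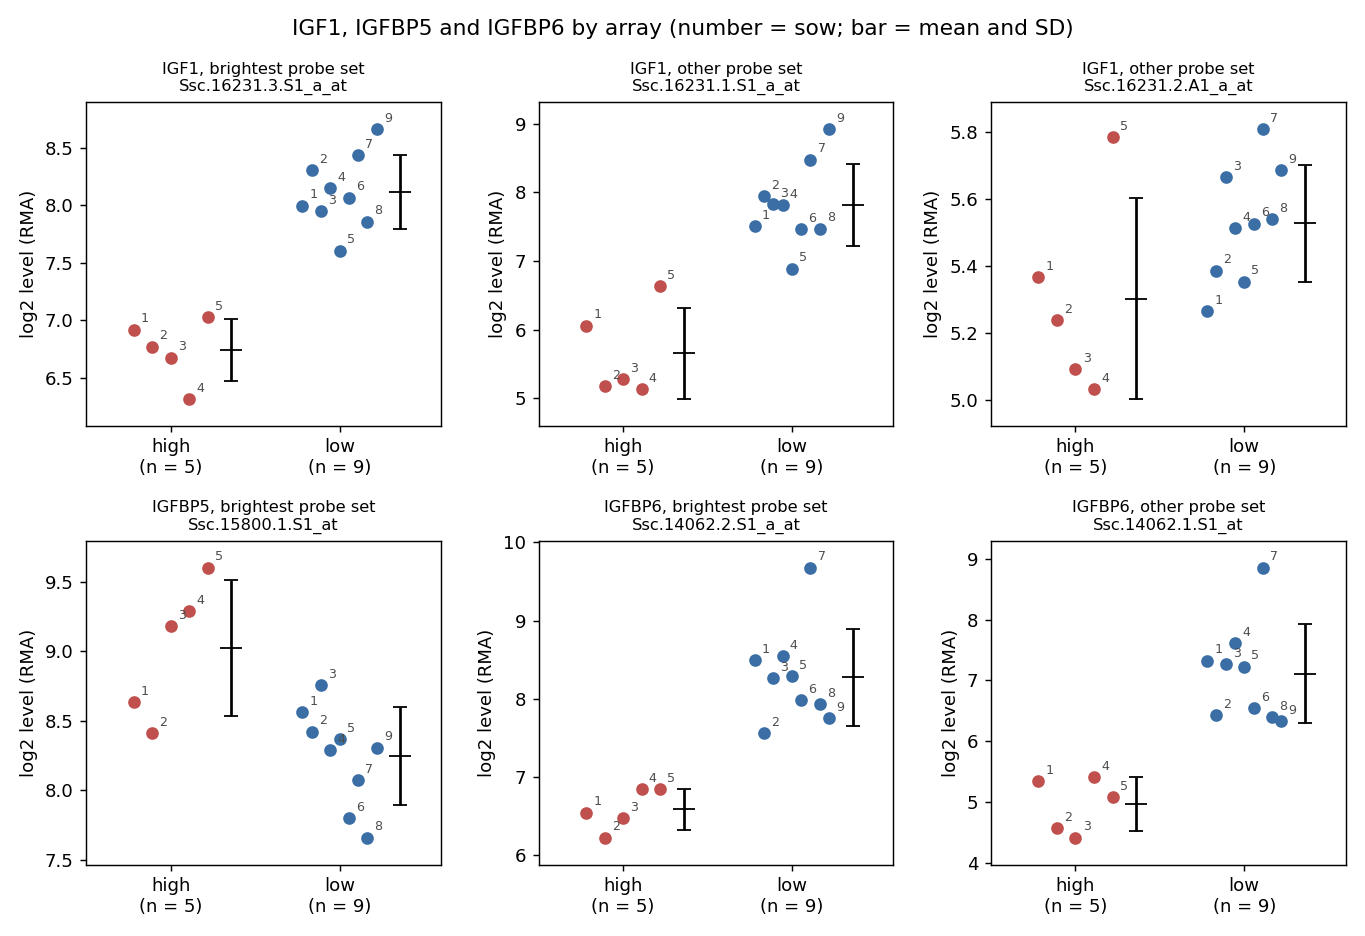
Log2 level of each of the 6 probe sets in 5 high and 9 low prolificacy arrays, with the sow number beside each point and the group mean and SD as a bar. IGF1 and IGFBP6 separate the groups in 4 probe sets, IGFBP5 overlaps because of high 1 and high 2, and low 7 stands highest for IGFBP6.

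Cell type marker lists also differed between the groups, and their part in the differences above was not tested beyond the fits with list means as covariates that follow. In limma at an adjusted p under 0.05, 15 of 17 measured smooth muscle genes fell in high prolificacy, 0 rose and the median difference was -3.33. Of 19 epithelium genes 10 rose and 0 fell (median 1.84), and of 12 stroma genes 5 fell and 1 rose (median -1.0). Over 1 probe set per gene, 5.42% of 6765 genes fell and 5.34% rose, with a median of 0.073. In bulk uterus samples, fewer cells of a type and less RNA per cell cannot be told apart. Of the other lists, endothelium had 1 of 8 genes higher and 1 lower, macrophages 0 of 4, adipocytes 0 of 3 higher and 1 lower, and trophoblast and fetal membranes 0 of 6 either way. Under the lowest array median on average were 1 smooth muscle gene, no epithelium or stroma gene, 2 of 8 endothelium genes, 2 of 4 macrophage genes, 3 of 6 trophoblast genes and all 3 adipocyte genes. RNA integrity controls overlapped between the groups, with a 3-prime minus 5-prime difference for actin of 1.37 ± 0.26 (SD, n = 5) in high arrays and 1.29 ± 0.40 (SD, n = 9) in low arrays.

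One high prolificacy sow held more smooth muscle signal than the other 4. Its level lay within their range in every IGF1 and IGFBP6 probe set that separated the groups. It was the second highest of the 5 high arrays in all of these but the brightest IGFBP6 probe set. With 1 such sow, whether these levels follow the smooth muscle signal was not tested. The smooth muscle list mean, the average over the list of log2 levels centred per gene, was -0.0049 in high 1, between -3.09 and -2.39 in the other high arrays and between 0.66 and 1.76 in the low arrays. Relative to the low mean, the smooth muscle mean of high 1 differed by -1.15, where the other high arrays ranged between -4.24 and -3.54. IGF1 in high 1 differed from the low mean by -1.20, within the range of -1.80 to -1.09 of the other high arrays. In the second brightest IGF1 probe set high 1, at 6.06, lay above high 2, high 3 and high 4, at 5.14 to 5.28, and below high 5, at 6.63. IGFBP6 in high 1 differed by -1.73, again within the range of the others, -2.05 to -1.43. In the other IGFBP6 probe set high 1, at 5.34, lay below high 4, at 5.41, and above the other high arrays. IGFBP5 in high 1 differed by 0.39, in a range of 0.16 to 1.36. The epithelium list mean of high 1 was 0.69, within the 0.53 to 1.45 of all high arrays, and its stroma mean of 0.098 was near the upper end of theirs, -1.03 to 0.24.

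With list means as covariates the differences of the 3 genes shrank to different degrees. IGF1 differed by -0.87 ± 0.40 (SE) with the smooth muscle mean, by -1.01 ± 0.22 with the epithelium mean and by -0.86 ± 0.37 with both. IGFBP6 differed by -1.20 ± 0.68 (SE) with the smooth muscle mean, by -1.26 ± 0.38 with the epithelium mean and by -1.19 ± 0.66 with both. IGFBP5 differed by 0.16 ± 0.51 (SE) with the smooth muscle mean, by 0.60 ± 0.32 with the epithelium mean and by 0.16 ± 0.53 with both. The signs held in all 3 genes, and the IGFBP5 values with the smooth muscle mean were smaller than their SE. The smooth muscle mean alone explained 83.1% of the group and the epithelium mean 53.0%, so the fits with the smooth muscle mean leave little of the contrast to estimate.

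**Figure D2:**
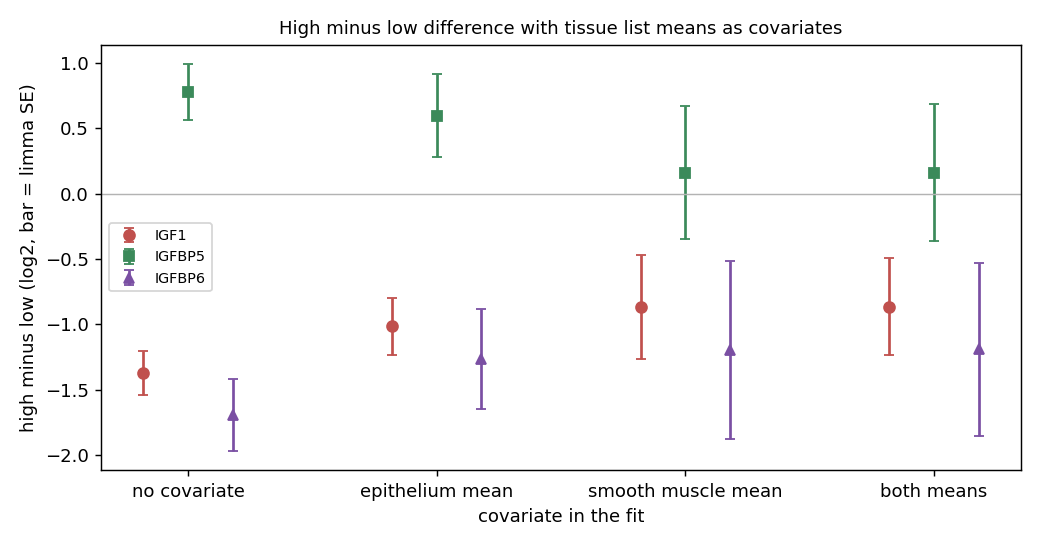
High minus low difference in log2 level (y axis, bar = limma SE) of IGF1, IGFBP5 and IGFBP6 without a covariate and with the epithelium mean, the smooth muscle mean or both in the fit (x axis). IGF1 and IGFBP6 stay under 0 in all 4 fits, and IGFBP5 comes close to 0 where the smooth muscle mean is included.

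Relations within the 9 low prolificacy sows do not involve the group difference. The genes and lists were, however, chosen with earlier results of these data known, so their p-values are read as a description. The 12 relations were tested with exact permutation tests and adjusted together. None passed an adjusted p of 0.05. The closest was IGF1 with the epithelium list mean, at r = -0.81 (Spearman rho = -0.70, exact permutation p = 0.0051 for r and 0.043 for rho, adjusted p = 0.061 for r and 0.15 for rho, two-sided, n = 9). Only 1.16% of 6743 other genes had a lower r with that mean. The epithelium-poor sows low 7 and low 9, at list means of -2.40 and -2.06, had the highest IGF1 levels, 8.44 and 8.67, and low 5, with the highest epithelium mean of 0.24, had the lowest IGF1, 7.61. Without low 7 and low 9 the correlation was -0.52 (exact permutation p = 0.23, n = 7), so the relation rests in good part on those sows. In deviations over all 14 arrays it was -0.58 (permutation test, adjusted p = 0.28).

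IGF1 and the smooth muscle mean had r = 0.64 within low prolificacy (rho = 0.72, exact permutation p = 0.062 for r and 0.037 for rho, adjusted p = 0.25 for r and 0.15 for rho, n = 9), above 94.7% of 6745 other genes. Without low 2, whose IGF1 of 8.31 went with a smooth muscle mean of 0.69, this r was 0.86 and r with epithelium -0.88, and both then passed (exact permutation adjusted p = 0.036, n = 8). Leaving out any other single low array made neither pass. Without low 5 and low 7, the sows farthest from the median smooth muscle mean, r with smooth muscle was 0.36 (exact permutation p = 0.45, n = 7). The 2 list means ran against each other at their ends. Low 7 and low 9, lowest in epithelium, had the highest smooth muscle means, 1.76 and 1.46. Low 5, highest in epithelium, had the lowest, 0.66. The 2 IGF1 relations are therefore not separate results.

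None of the IGFBP6 relations with the lists passed either. Its r was 0.65 with the stroma mean (rho = 0.68, exact permutation p = 0.059 for r and 0.050 for rho, adjusted p = 0.25 for r and 0.15 for rho, n = 9), 0.56 with smooth muscle (rho = 0.33, adjusted exact permutation p = 0.32 for r) and -0.40 with epithelium (rho = 0.050, adjusted exact permutation p = 0.68 for r). Low 7 and low 9 were both poor in epithelium, yet IGFBP6 was at 9.68 in low 7 and at 7.75 in low 9, the second lowest of the group. Without those 2 sows r with epithelium was 0.40 (exact permutation p = 0.38, n = 7). Without low 7 and low 8, farthest from the median stroma mean, r with stroma was 0.45 (exact permutation p = 0.31, n = 7), and without low 5 and low 7 r with smooth muscle was 0.27 (exact permutation p = 0.54, n = 7).

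IGFBP5 had r = 0.28 with epithelium (rho = 0.68, exact permutation p = 0.48 for r and 0.050 for rho), -0.27 with smooth muscle (rho = -0.35) and 0.21 with stroma (rho = 0.067), with adjusted exact permutation p for r between 0.82 and 0.87 (n = 9). Without the 2 farthest sows of each list mean these were 0.65, -0.17 and -0.23 (n = 7). IGF1 and stroma had r = 0.17 (rho = 0.38, adjusted exact permutation p = 0.89 for r, n = 9), and -0.38 without low 7 and low 8.

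No correlation among the 3 genes passed its test within low prolificacy, and with 9 sows a moderate one could be missed. IGF1 and IGFBP6, both lower in high prolificacy, had r = 0.071 (rho = -0.083), IGF1 and IGFBP5 r = 0.0014 (rho = -0.10) and IGFBP5 and IGFBP6 r = 0.0037 (rho = -0.017), each with an adjusted exact permutation p of 0.997 for r and 0.98 for rho (n = 9). Low 9 had the highest IGF1 and low 7 the highest IGFBP6. Without low 7 alone, r of IGF1 and IGFBP6 was -0.51. Without any other single low array it stayed positive, from 0.0076 without low 8 to 0.38 without low 9. Without both low 5 and low 9 it was 0.49. The sign of this r therefore depended on low 7. Without low 5 and low 9 r of IGF1 and IGFBP5 was 0.059, and without low 6 and low 8 r of IGFBP5 and IGFBP6 was -0.48 (n = 7). The 5 high prolificacy sows are too few for a correlation.

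**Figure D3:**
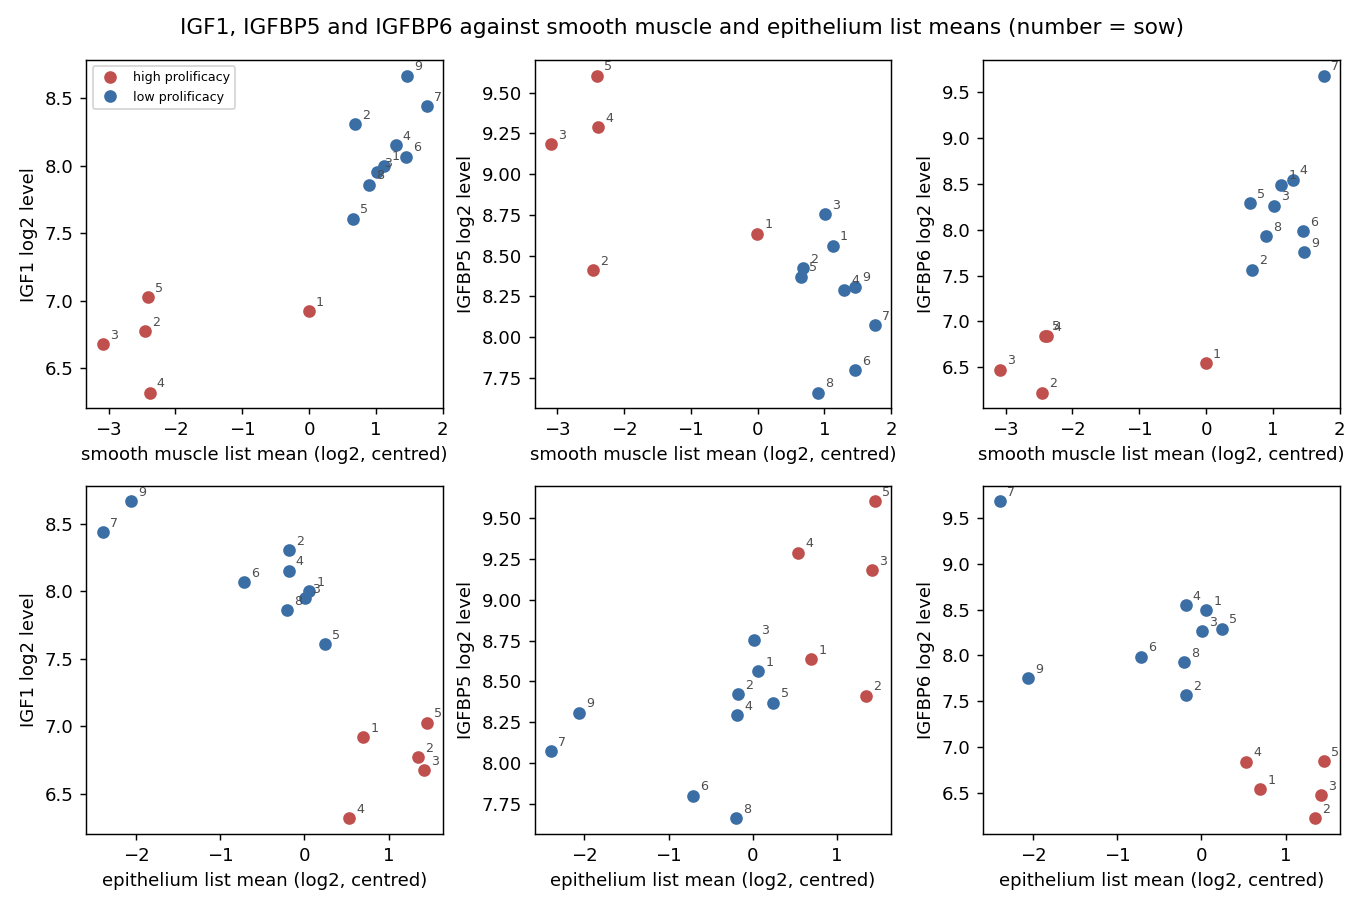
Log2 level of IGF1, IGFBP5 and IGFBP6 (y axes) against the smooth muscle and epithelium list means (x axes, centred log2) in 5 high and 9 low prolificacy arrays, with the sow number beside each point. High 1, near 0 on the smooth muscle axis, has IGF1 and IGFBP6 levels among those of the other high arrays, with only high 5 higher in IGF1. Low 7 and low 9 lie far to the left on the epithelium axis.

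The genes most alike to each member were taken over all 14 arrays by the correlation of deviations from the group means, as a description. They are the extremes among 6765 genes, and with 14 arrays such extremes can reach a high r by selection alone. No test was made of them. For IGF1 the most alike were KPNA1, an importin (r = 0.76), HSPB8, a small heat shock protein abundant in muscle (r = 0.75), LOC100514340 (r = 0.75), the forkhead factor FOXN3 (r = 0.74) and the muscle calpain CAPN3 (r = 0.74). Of these 5 genes 3 fell in high prolificacy in limma, where 5.42% of all 6765 genes fell. The differences were -2.07 ± 0.29 for HSPB8 (SE, limma adjusted p = 0.0013), -1.93 ± 0.49 for LOC100514340 (adjusted p = 0.025) and -0.62 ± 0.18 for KPNA1 (adjusted p = 0.048). FOXN3 differed by -0.81 ± 0.24 (adjusted p = 0.054) and CAPN3, dim at an average level of 3.90, by 0.022 ± 0.12 (adjusted p = 0.95). The most opposite were AREG, the epidermal growth factor family ligand amphiregulin (r = -0.87, and -0.94 in the low arrays alone), ARF1 (r = -0.84) and COX6A1 (r = -0.83). AREG was dim, at an average level of 3.00.

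For IGFBP5 the most alike were HSPBP1, a co-chaperone of HSP70 (r = 0.87), NR1H3, the liver X receptor alpha (r = 0.86), ZFPL1, CDH24 and SIGIRR (r = 0.85 each), and the most opposite were MLLT3 (r = -0.89), METTL5 and FPGT (r = -0.85 each). None of these 8 genes was called between the groups by limma (adjusted p between 0.068 and 0.98). CDH24 was dim, at an average level of 3.64. For IGFBP6 the most alike were the sialyltransferase ST3GAL4 (r = 0.86), ARF2 (r = 0.84), the skeletal muscle myosin MYH2, the serotonin receptor HTR2A and the neurotrophin BDNF (r = 0.82 each). The most opposite were SAT1, which acetylates polyamines (r = -0.85), PBLD (r = -0.82) and PPM1D (r = -0.79). Low 7 weighed heavily on these. Without it r was 0.65 for ST3GAL4, 0.77 for ARF2, 0.45 for MYH2, 0.40 for HTR2A, 0.45 for BDNF, -0.56 for SAT1, -0.70 for PBLD and -0.64 for PPM1D. MYH2, HTR2A and BDNF averaged 3.02, 3.42 and 3.21, all dim. In limma ST3GAL4 and ARF2 were lower in high prolificacy, with differences of -0.56 ± 0.15 and -0.59 ± 0.17 (SE, adjusted p = 0.029 and 0.0498). The other genes named for IGFBP6 were not called (limma adjusted p between 0.18 and 0.94).

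Other genes of the insulin-like growth factor pathway were compared with all genes on the array. Of 30 other pathway genes on the array, 0 rose and 1 fell in high prolificacy at limma's adjusted p under 0.05, against 5.34% and 5.42% of all 6765 genes. At an unadjusted p under 0.05 in limma, 4 of the 30 were higher and 2 lower, where 5073 of all 23999 probe sets passed in either direction. These counts are small, and nothing particular to the pathway is read from them. The median difference of the 30 was 0.11, against 0.073 over all genes. The binding proteins IGFBP3, IGFBP4, IGFBP7 and IGFBPL1 were not analysed, since the annotation gave them no probe set with their symbol alone. The same held for PAPPA2, STC2 and ADAM12 among the listed proteases and inhibitors.

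The other ligands were not called. IGF2, the fetal growth factor that IGFBP6 prefers, was at 9.29, 7.52, 7.87, 9.65 and 8.50 in high 1 to high 5, against a lowest of 7.58, a median of 8.19 and a highest of 8.76 in low prolificacy, with a difference of 0.36 ± 0.30 (SE, limma adjusted p = 0.57). High 1 and high 4 lay above all low arrays, and these were also the high arrays with the highest trophoblast and fetal membranes list means, 0.68 and 4.49. Low 4 and low 5 had list means above that of high 1, at 1.55 and 1.44, with IGF2 at 8.01 and 8.20. The part of this list mean in IGF2 was not tested. None of the 13 IGF2 probe sets was called. INS, insulin, differed by 0.027 ± 0.16 and was dim.

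Among the receptors, IGF1R, through which IGF1 signals, was at 6.77, 7.46, 7.50, 6.54 and 8.99 in high 1 to high 5, against a lowest of 6.16, a median of 6.50 and a highest of 7.09 in low prolificacy. The difference was 0.82 ± 0.32 (SE, limma adjusted p = 0.15), with high 5 well above every other array and high 1 and high 4 inside the low range. High 5 was not highest in IGF1R alone. It was the highest of all arrays in several other pathway genes, among them MAPK3, FOXO1, GRB2 and PDPK1. In others, such as IGF2 and IGFBP2, it was not, and in JAK2 it was the lowest. IGF1R passed as higher in limma with array weights (adjusted p = 0.037) and with the trophoblast mean as a covariate (adjusted p = 0.039). The other IGF1R probe set differed by 0.70 ± 0.22 (adjusted p = 0.062). IGF2R, which clears IGF2, differed by 0.15 ± 0.24 and INSR, the insulin receptor, by 0.053 ± 0.21, and neither was called. Both group means of IGF2R and of INSR lay under the lowest array median, so whether they were measured above background is not known.

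Of the other carriers, IGFBP2, a binding protein of uterine endometrium, varied most between sows. It was at 11.64, 9.42, 8.91, 9.53 and 8.54 in high 1 to high 5, against a lowest of 6.54, a median of 8.65 and a highest of 10.44 in low prolificacy (difference 1.05 ± 0.69 SE, limma adjusted p = 0.43), and the groups overlapped widely. IGFBP1 differed by 0.085 ± 0.13 and IGFALS, the acid-labile subunit of the circulating complex, by 0.23 ± 0.17, and neither was called. Both were dim, with group means under the lowest array median, so an absence of change cannot be read from them.

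Of the proteases that cut binding proteins and their inhibitors, 0 of 4 were called. STC1, stanniocalcin, an inhibitor of the protease PAPPA, was at 6.93, 5.98, 7.39, 4.62 and 6.23 in high 1 to high 5, against a lowest of 3.56, a median of 4.78 and a highest of 6.26 in low prolificacy, which differ by 1.51 ± 0.47 (SE, adjusted p = 0.062 in limma). High 4 was among the low arrays and low 5 among the high arrays, and leaving out either made STC1 pass (adjusted p = 0.016 without high 4 and 0.025 without low 5), as did the trophoblast mean as a covariate (0.039). The low mean of STC1, 4.72, lay under the lowest array median. Its other probe sets, both dim, differed by 0.69 ± 0.21 (SE, limma adjusted p = 0.058) and 0.048 ± 0.098 (adjusted p = 0.85). HTRA1, a secreted serine protease that cleaves IGFBP5, differed by -0.54 ± 0.19 (adjusted p = 0.097) and passed without high 1 (adjusted p = 0.0064), without low 8 (adjusted p = 0.050) or with array weights (adjusted p = 0.016). A dim second HTRA1 probe set had the opposite sign, at 0.14 ± 0.14 (SE, limma adjusted p = 0.64). PAPPA, the protease of IGFBP4 and IGFBP5, and ADAM9 differed by -0.10 ± 0.13 and -0.10 ± 0.35. PAPPA was dim, with both group means under the lowest array median.

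The gene that fell was JAK2, the kinase that carries the growth hormone receptor's signal. It was at 7.08, 6.89, 6.73, 6.96 and 6.13 in high 1 to high 5, against a lowest of 6.86, a median of 7.51 and a highest of 8.56 in low prolificacy, which differ by -0.98 ± 0.27 (SE, adjusted p = 0.036 in limma). The groups overlapped through low 3, and the call was lost in 6 of the 14 fits that left out 1 array, those without high 2, high 3, high 5, low 1, low 6 or low 9 (adjusted p between 0.054 and 0.10). Over all 14 fits the limma adjusted p lay between 0.014, without low 3, and 0.10, without high 5. In a dimmer JAK2 probe set the difference of -0.98 ± 0.42 did not pass (adjusted p = 0.19). Of the other growth hormone axis genes GHR, the growth hormone receptor, differed by -0.20 ± 0.25, and none was called. GHR was dim, with both group means under the lowest array median. Among 12 signalling genes downstream of the receptor, 0 rose and 0 fell, with a median difference of 0.15. Without high 1, MAPK3, a kinase of the mitogen pathway, and STAT5B, a transcription factor that JAK2 activates, passed as higher (adjusted p = 0.031 and 0.045), and MAPK3 did also without high 4, with array weights and with the trophoblast mean (adjusted p = 0.020, 0.024 and 0.032). Over the whole array limma called 2650 probe sets without high 1, 1832 without high 4, 3060 with array weights and 2291 with the trophoblast mean. The main fit called 1885.

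**Figure D4:**
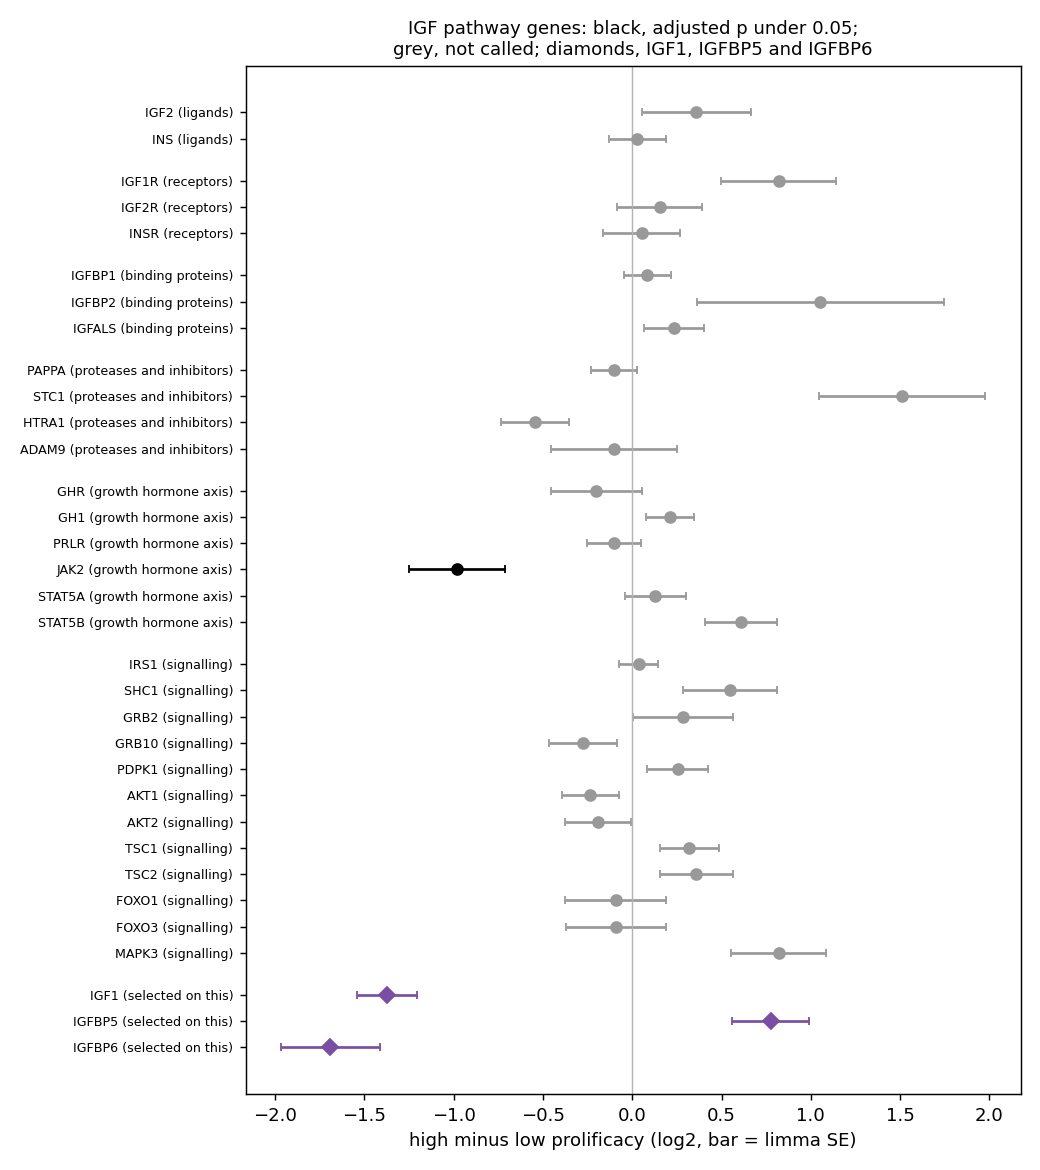
High minus low difference in log2 level (x axis, bar = limma SE) of 30 insulin-like growth factor pathway genes by class, with IGF1, IGFBP5 and IGFBP6 as diamonds at the bottom. JAK2 is the single gene in black, called at an adjusted p under 0.05, and IGFBP2 and STC1 have the largest SE, 0.69 and 0.47.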

How the data were processed

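Uterus RNA of 14 sows was hybridised to 1 Affymetrix porcine array each. The deposited values are log2 levels per probe set that, per the submitters' processing notes, the authors made with RMA, whose settings were not given in the sources used here. The method equalises probe intensity distributions between arrays, so a shift shared by most transcripts would be removed. Array medians lay between 5.73 and 5.84, and precision is limited by how many arrays there are. Of 24123 probe sets, 124 controls were left out. The platform annotation that gave the symbols may be outdated. In assembly Sscrofa11.1, 9961 of the 10069 probe sets with 1 symbol were found by gene number and 0 symbols changed.

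The high minus low contrast was fitted in R 4.3.3 with limma 3.58.1 (lmFit, eBayes, no covariate, two-sided, Benjamini-Hochberg adjustment over 23999 probe sets, threshold 0.05). A gene was its brightest probe set with 1 symbol. Correlations used exact permutation of pairings within low prolificacy, and 100000 permutations within groups for deviations over all arrays. Named genes were the 3 members, all ligand, receptor, carrier and protease genes of the pathway list, other pathway genes called, and the 5 most alike and 3 most opposite genes per member. The members and lists were chosen with earlier results of these data known. Alternatives were other normalisations, weights, covariates, a replicate block, filters, thresholds and leaving out arrays. Both procedures were tested on simulated data.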

Additional observations from a re-analysis of the deposited data

Results flagged for a closer look

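Of 44 groups of values examined for an array far from the others, 3 held one, where chance flags about 1 in 20. Low 7 stood apart among the 9 low prolificacy arrays for IGFBP6, at 9.68, with the nearest array at 8.54. Low 8 stood apart for HTRA1, at 9.25 against 9.76 in the nearest low array. High 1 stood apart among the 5 high prolificacy arrays in the smooth muscle list mean, at -0.0049 against -2.39 in the nearest high array. No explanation for these was tested.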

How the results depend on the processing

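The differences of IGF1, IGFBP5 and IGFBP6 kept their sign under every alternative run. Leaving out 1 array gave -1.44 to -1.27 for IGF1, 0.63 to 0.93 for IGFBP5 and -1.78 to -1.52 for IGFBP6. They moved by over 1 SD with the smooth muscle mean (IGF1 -0.87, IGFBP5 0.16), the epithelium mean (IGF1 -1.01) and both means (IGF1 -0.86, IGFBP5 0.16) as covariates. The other alternatives, a mean over all probe sets of the gene and the trophoblast mean as a covariate included, moved them by less. That covariate was chosen after seeing the data. IGFBP5 has 1 probe set, so no mean over probe sets was possible.

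The count of pathway genes higher (0) and lower (1) was 2 and 2 with array weights, 3 and 2 at an adjusted p of 0.10, 3 higher with the trophoblast mean, and 0 lower with the smooth muscle mean, the epithelium mean or both, fits in which limma called 0, 2 and 0 of all 23999 probe sets (269, 1360 and 299 at an unadjusted p under 0.05). Leaving out 1 array gave 0 to 2 in each direction. All-array calls, 1885, were 944 without high 3, 1002 without high 2, 2650 without high 1 and 3060 with array weights.

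With the replicate number as a block, 0 pathway genes were lower and 35 probe sets were called in all. The labels call the numbers biological replicates and tie them to no shared litter or day. Same-numbered sows correlated between -0.25 and 0.42 in their deviations, and 1 of 5 high sows correlated best with its own number, so the block was not used. The IGF1 difference was then -1.26, the IGFBP5 difference 0.54 and the IGFBP6 difference -1.64.

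No relation within low prolificacy passed its test, and without low 2 alone r of IGF1 with smooth muscle (0.86) and with epithelium (-0.88) did. Signs turned in several of these relations, whose r was -0.40 for IGFBP6 with epithelium, 0.21 for IGFBP5 with stroma, 0.17 for IGF1 with stroma and near 0 for the gene pairs. As Spearman rho, IGFBP6 with epithelium was 0.050, IGF1 with IGFBP5 -0.10, IGF1 with IGFBP6 -0.083 and IGFBP5 with IGFBP6 -0.017. Without the 2 farthest sows, IGF1 with stroma was -0.38, IGFBP5 with stroma -0.23, IGFBP6 with epithelium 0.40 and IGFBP5 with IGFBP6 -0.48. In deviations over all 14 arrays, IGF1 with stroma was -0.078 and with IGFBP5 -0.031. Leaving out 1 low array gave, for IGF1, 0.50 to 0.86 with smooth muscle, -0.88 to -0.71 with epithelium, -0.059 to 0.58 with stroma, -0.26 to 0.13 with IGFBP5 and -0.51 to 0.38 with IGFBP6. For IGFBP5 it gave -0.58 to -0.15, 0.18 to 0.49 and -0.38 to 0.43 with the 3 lists in that order, and -0.17 to 0.31 with IGFBP6. For IGFBP6 it gave 0.11 to 0.74, -0.74 to 0.51 and 0.45 to 0.78. The cause of these changes was not tested. RMA values hold no detection calls, so signal over background could not be assessed for dim probe sets.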
